A study of Xenopus tropicalis with 17 samples.

Results

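Whole embryos of the frog Xenopus tropicalis with a single mutated copy of sf3b4 were compared with wild type embryos at stages 15, 25 and 35. The comparison used 12 of the 17 pools of the study, 6 heterozygous and 6 wild type, with 2 pools of each genotype at each stage. Each pool held 5 whole embryos that had not been treated, and RNA was sequenced after polyA selection. Heterozygous embryos are labelled Sf3b4 heterozygous, and the labels state neither the mutation nor whether pools of different genotypes came from the same parents or clutches. The p-values therefore measure the spread between these pools, which may be technical. The 5 null pools were compared with no group, and their levels are given only as values. They entered only an alternative fit that held all 17 pools.

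The protein made from sf3b4 belongs to SF3b, a part of the U2 small nuclear ribonucleoprotein that recognises the branch site of introns during splicing. In humans, mutation of a single SF3B4 copy causes Nager syndrome, in which the face and limbs form abnormally. The neural crest, a migratory cell population, gives rise to much of the skeleton of the face through the pharyngeal arches.

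The 12 libraries held 11714437 to 21639041 counts, and 17542 of 26531 genes were tested. Pools of a group correlated across genes with r of 0.971 to 0.984 on the log2 scale. Counts of paired pools varied beyond sampling noise, at 13.8 to 53.4 for chi-square over its degrees of freedom, and the largest value belonged to the stage 15 wild type pair. On the first principal component, which held 74.5% of the variance, the second of these pools lay at -124 and the other 3 stage 15 pools between -161 and -152. Stage 25 pools lay between -16.8 and -1.68 and stage 35 pools between 156 and 161.

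Transcripts of sf3b4 itself were lower on average in heterozygous pools, but the difference was not called. Levels are given in CPM, counts scaled to a common library size. At stage 15, sf3b4 stood at 177 and 226 CPM in heterozygous pools and at 294 and 207 CPM in wild type pools. At stage 25 the heterozygous pools stood at 110 and 124 CPM and the wild type pools at 140 and 143 CPM. At stage 35 the heterozygous levels were 91.4 and 64.0 CPM and the wild type levels 83.2 and 108 CPM. The genotypes did not overlap at stage 25 and overlapped at stages 15 and 35. Over the 3 stages, with stage as a term, the log2 fold change of heterozygous against wild type was -0.30 (SE 0.12, 6 pools against 6), or 0.815-fold. The unadjusted p was 0.0221 and the edgeR adjusted p was 1. The fold change was alike in size at each stage, at -0.31, -0.28 and -0.30 on the log2 scale (SE 0.22 each) for stages 15, 25 and 35. The sf3b4 levels of null pools were 152 CPM (stage 15), 111 and 113 CPM (stage 25) and 77.8 and 83.2 CPM (stage 35). Since the mutation is not stated, the level of the transcript is no check of the genotype labels.

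Over the stages, edgeR called a single gene, xmc, which was 1 of 17542 tested genes, or 0.0057%. The gene encodes a coiled-coil protein known from Xenopus laevis as marginal coil and expressed in the early mesoderm. At stage 15, xmc stood at 21.8 and 19.1 CPM in heterozygous pools and at 2.26 and 2.30 CPM in wild type pools. At stage 25 it stood at 1.61 and 1.15 CPM in heterozygous pools and at 0.171 and 0.299 CPM in wild type pools, where it rested on 3 and 5 counts. At stage 35 it had no count in any of the 12 pools. The heterozygous pools were above both wild type pools at each stage with counts. As xmc was picked by its small p, this order is no separate result. The fit over the stages put xmc 7.78-fold above wild type in heterozygous embryos (log2 fold change 2.96, SE 0.30, edgeR adjusted p 0.00655). Single stages were read from a fit of all 12 pools. There stage 15 gave a log2 fold change of 3.16 (SE 0.39, edgeR adjusted p 0.0743). Stage 25 gave 2.52 (SE 0.52, edgeR adjusted p 0.809). With the stage 15 pools fitted alone the log2 fold change was 3.17 and the edgeR adjusted p 0.045. Fewer cells with a transcript and less transcript per cell cannot be told apart in RNA of whole embryos, for xmc and for every gene below.

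The call of xmc depended on the pools of stages 15 and 25 and on each heterozygous pool of stage 15. Its edgeR adjusted p was 0.169 without the first heterozygous pool of stage 15, 0.0847 without the second, 0.368 without the stage 25 pools and 1 without the stage 15 pools. Its log2 fold change lay between 2.42 and 3.13 over all 21 alternative settings, with adjusted p between 2.08e-08 and 1. In the RefSeq annotation xmc overlaps the genes LOC105946046 and nexmif, so their reads may be shared. LOC105946046 showed the same order of pools at stages 15 and 25. At stage 15 it stood at 37.0 and 37.6 CPM in heterozygous pools and at 4.46 and 6.12 CPM in wild type pools. At stage 25 it had 55 and 23 counts in heterozygous pools and 2 and 0 counts in wild type pools. This was at least 12.7-fold higher with wild type taken at a floor of 3 counts per library. At stage 35 it had 1 and 0 counts in heterozygous pools and 1 and 4 counts in wild type pools. Its edgeR adjusted p was 0.142 over the stages, 0.138 at stage 15 and 0.0798 at stage 25. With the stage 15 pools fitted alone its edgeR adjusted p at that stage was 0.045. Without the filter on low counts edgeR gave 2.81e-05 at stage 15 and 2.05e-05 at stage 25. The DESeq2 Wald test gave adjusted p of 2.83e-07 and 0.00777 at these stages. It was called over the stages without the second wild type pool of stage 35, at stage 15 without the first wild type pool of that stage, with an edgeR adjusted p of 0.0186, and at stage 25 without either wild type pool of stage 15.

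**Figure D1:**
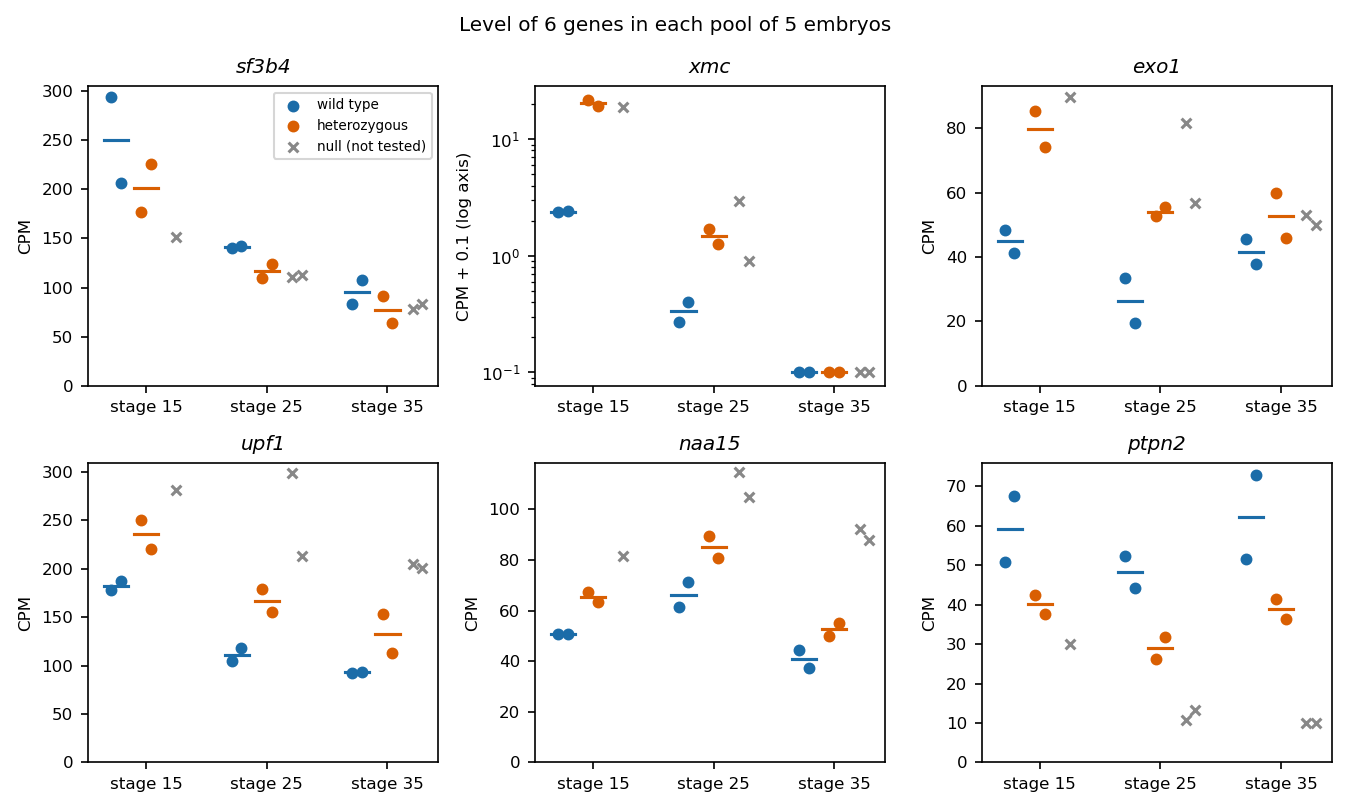
Levels of 6 genes in each pool by stage, in CPM, with xmc on a log axis after adding 0.1. Points are pools, bars are means of the 2 pools, and grey crosses are the null pools, which were not tested. Heterozygous pools of xmc stand at 21.8 and 19.1 CPM at stage 15, against 2.26 and 2.30 CPM in wild type, and ptpn2 is lower in both heterozygous pools at every stage.

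Over the stages 470 genes (2.68% of those tested) had an unadjusted p under 0.05, 179 higher (1.02%) and 291 lower (1.66%) in heterozygous pools. With no effect 877 genes would pass. The DESeq2 Wald test called 5 genes over the stages. These were xmc, ptpn2, upf1, exo1 and LOC116410633.

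Genes whose heterozygous pools lay on the same side of both wild type pools at all 3 stages were then counted. There were 51 such genes higher in heterozygous pools (0.291% of those tested) and 78 lower (0.445%). With 2 pools per genotype and stage such an order also arises with no effect, so these counts alone show no difference. Of these, 38 and 60 had a symbol and a mean of at least 1 CPM, and the 12 with the smallest p in each direction are described here. Since non-overlap was the rule by which they were picked, it is no result about them. Their fold changes over the stages ran from 1.21 to 1.67 among the higher genes and from 0.486 to 0.822 among the lower ones. None of the 24 reached an edgeR adjusted p under 0.05.

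Among the higher genes, upf1 had the smallest p. It encodes the RNA helicase at the centre of nonsense-mediated decay, the pathway that degrades transcripts with premature stop codons. At stage 15, upf1 stood at 251 and 220 CPM in heterozygous pools and at 178 and 187 CPM in wild type pools. The stage 25 levels were 179 and 155 CPM against 105 and 118 CPM in wild type. The stage 35 levels were 153 and 113 CPM against 92.5 and 93.9 CPM. The difference was of like size at each stage, at 0.37, 0.59 and 0.51 on the log2 scale (SE 0.17 each). Over the stages its log2 fold change was 0.49 (SE 0.09, unadjusted p 7.78e-05, edgeR adjusted p 0.273). The adjusted p ran from 0.00338 to 1 over the alternative settings. The upf1 levels of null pools were 281 CPM (stage 15), 299 and 213 CPM (stage 25) and 205 and 201 CPM (stage 35).

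The gene exo1 encodes an exonuclease of DNA mismatch repair and recombination. At stage 15, exo1 stood at 85.5 and 74.0 CPM in heterozygous pools and at 48.4 and 41.4 CPM in wild type pools. The stage 25 levels were 52.6 and 55.6 CPM against 33.3 and 19.4 CPM in wild type. By stage 35 the pools stood closer, at 59.8 and 45.8 CPM against 45.5 and 37.8 CPM. Its log2 fold change over the stages was 0.74 (SE 0.15, edgeR adjusted p 0.403). It was 0.83, 1.04 and 0.34 at the 3 stages (SE 0.24 each).

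The other higher genes were each shifted by less than 0.7 on the log2 scale. The auxiliary subunit of an N-terminal acetyltransferase, naa15, had nearly the same difference at every stage. It stood at 67.2 and 63.5 CPM against 50.8 and 50.7 CPM in wild type at stage 15, and at 89.3 and 80.7 CPM against 61.3 and 71.3 CPM at stage 25. At stage 35 it stood at 50 and 55.3 CPM against 44.5 and 37.1 CPM, and its log2 fold change over the stages was 0.36 (SE 0.08, edgeR adjusted p 1). The matrix protein gene npnt stood at 29.5 and 24.9 CPM against 14.2 and 21.1 CPM at stage 25, and differed by 0.51 over the stages on the log2 scale (SE 0.13). The transcription initiation factor gene taf2 differed by 0.34 (SE 0.10), with its largest log2 fold change, 0.61 (SE 0.16), at stage 25. The transcription factor gene fli1, active in endothelium and blood, stood at 5.32 and 4.90 CPM against 3.47 and 2.81 CPM at stage 15, and its log2 fold change over the stages was 0.38 (SE 0.12). The rest were rasgrp2, an exchange factor for small GTPases, zdhhc8, a palmitoyltransferase, gnaq, a G protein alpha subunit, rfx7, a transcription factor, derl2, a part of protein quality control in the endoplasmic reticulum, and asb12.2. Their log2 fold changes over the stages were 0.69, 0.57, 0.68, 0.34, 0.27 and 0.50 in that order, each with an edgeR adjusted p of 1.

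Among the lower genes, ptpn2 had the smallest p. It encodes a tyrosine phosphatase that acts on JAK and STAT proteins. At stage 15, ptpn2 stood at 42.4 and 37.6 CPM in heterozygous pools and at 50.7 and 67.5 CPM in wild type pools. The stage 25 levels were 26.1 and 31.8 CPM against 52.4 and 44.1 CPM in wild type. The stage 35 levels were 41.5 and 36.4 CPM against 51.5 and 72.9 CPM. Its log2 fold change was -0.66 over the stages (SE 0.12, unadjusted p 3.79e-05, edgeR adjusted p 0.166). By stage it was -0.56, -0.74 and -0.67 (SE 0.22 each). The adjusted p ran from 0.0022 to 1 over the alternative settings. The ptpn2 levels of null pools were 30.1 CPM (stage 15), 10.6 and 13.4 CPM (stage 25) and 10.1 and 9.93 CPM (stage 35).

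Of the other lower genes, aqp9, a water and glycerol channel, had the lowest fold change over the stages, at -1.04 on the log2 scale (SE 0.29, unadjusted p 0.0024). Its levels were low, at 1.5 and 0.849 CPM against 2.0 and 3.95 CPM at stage 25, and later, at stage 35, they were 4.88 and 6.84 CPM against 11.1 and 8.17 CPM. The lower genes also held fanca, of the Fanconi anaemia core complex, and alkbh3, a demethylase of alkylated nucleic acids. Their log2 fold changes over the stages were -0.46 (SE 0.13) and -0.49 (SE 0.14). Both are genes of DNA repair, as is exo1, which was among the higher genes. The ubiquitin ligase adaptor gene wsb1, among the most abundant of these genes, stood at 274 and 243 CPM against 495 and 293 CPM at stage 25 and differed by -0.42 over the stages on the log2 scale (SE 0.12). The gene of the gamma-tubulin complex subunit tubgcp4 stood at 5.66 and 5.82 CPM against 10.8 and 8.56 CPM at stage 25 and differed by -0.46 over the stages (SE 0.15). The others were rrnad1, c4h1orf141, chpt1, an enzyme of phosphatidylcholine synthesis, MGC115163, pigb, an enzyme of glycolipid anchor synthesis, and slc5a9, a sodium-coupled sugar transporter. Their log2 fold changes over the stages were -0.80, -0.68, -0.35, -0.61, -0.52 and -0.28 in that order, each with an edgeR adjusted p of 1. RefSeq places an overlapping gene at c4h1orf141, fanca, pigb and exo1, so reads there may be shared.

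In the fit of all 12 pools edgeR called 0 genes at each single stage. At stage 15, 699 genes (3.98%) had an unadjusted p under 0.05, followed by 434 genes (2.47%) at stage 25 and 214 (1.22%) at stage 35. The DESeq2 Wald test called 4, 9 and 1 genes in that order. At stage 15, 127 of the 699 genes were higher and 572 lower in heterozygous pools, and this split rested on the second wild type pool. Without that pool 700 genes passed, 399 higher and 301 lower, and edgeR called 0. Without the first wild type pool edgeR called 371 genes, 20 higher and 351 lower. The second pool also stood apart in tissue markers. The summed level of the 19 skeletal muscle genes was 10905 CPM in it against 7310 to 8783 CPM in the other 3 stage 15 pools, and that of 17 oocyte and germ plasm genes was 220 CPM against 282 to 363 CPM. The part of this pool's state in the stage 15 differences was not tested.

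The 3 smallest p-values at stage 15 belonged to xmc, LOC105946046 and nrl. The transcription factor gene nrl, known for rod photoreceptors, had 11 and 19 counts in heterozygous pools and 2 and 3 counts in wild type pools at stage 15. Taken against the floor of 3 counts per library, heterozygous pools were at least 4.99-fold higher, with an edgeR adjusted p of 1. At stage 35 nrl stood at 19.0 and 19.0 CPM in heterozygous pools and at 20.0 and 18.6 CPM in wild type pools.

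At stage 25 the smallest p-values belonged to esr-5, tbx6 and LOC105946046, closely followed by mespb. The genes esr-5, tbx6 and mespb are known for the presomitic mesoderm, the tissue from which somites form. At this stage esr-5, a Notch target of the enhancer of split family, stood at 8.11 and 7.58 CPM in heterozygous pools and at 2.51 and 2.81 CPM in wild type pools. The T-box factor gene tbx6 stood at 6.88 and 4.36 CPM against 1.25 and 2.04 CPM. The bHLH factor gene mespb stood at 3.83 and 1.76 CPM against 0.228 and 0.180 CPM, the wild type values resting on 4 and 3 counts. In all 3 genes both heterozygous pools were above both wild type pools at this stage. As these genes were picked by their small p-values, this order is no result about them. Their log2 fold changes were 1.56 (SE 0.22), 1.78 (SE 0.27) and 3.73 (SE 0.56), each with an edgeR adjusted p of 0.0798. All 3 were among the 9 genes that DESeq2 called. For esr-5 and tbx6 the edgeR adjusted p was 0.0436 without the first and 0.0422 without the second wild type pool of stage 15, and 0.0322 for tbx6 without the second heterozygous pool of stage 25. Over all alternatives it ran from 5.44e-05 to 1 for both genes.

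These genes were far more abundant at stage 15, where the genotypes stood close together. There tbx6 stood at 525 and 539 CPM in heterozygous pools and at 538 and 522 CPM in wild type pools. The stage 15 levels of mespb were 32.9 and 50.1 CPM against 41.1 and 36.0 CPM, and those of esr-5 were 187 and 214 CPM against 170 and 177 CPM. By stage 35, tbx6 stood at 0.268 to 0.402 CPM in all 4 pools. The null pools of stage 25 differed from each other, at 94.0 and 1.65 CPM for tbx6 and at 30 and 3.54 CPM for esr-5. Whether the pools were at the same point within stage 25 was not tested.

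For the difference between stages 25 and 35, c4a, esr-5 and rp1l1 had the smallest p-values. The complement gene c4a stood at 4.94 and 4.30 CPM in heterozygous pools against 0.741 and 1.02 CPM in wild type pools at stage 25, and at 16.1 and 22.6 CPM against 29.8 and 27.6 CPM at stage 35. The order of the genotypes was thus opposite at the 2 stages, with log2 fold changes of 2.39 (SE 0.40) and -0.57 (SE 0.32). As c4a was picked by the small p of this difference, the opposite order is no result about it. At stage 35 its unadjusted edgeR p was 0.0974. The gene rp1l1, whose product lies in the photoreceptor axoneme, had 13 and 25 counts in heterozygous pools and 1 and 1 count in wild type pools at stage 25. Against the floor of 3 counts this was at least 6.38-fold higher. At stage 35 it stood at 12.7 and 9.97 CPM against 10.1 and 10.8 CPM.

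At stage 35 the smallest p belonged to LOC101730955. Its heterozygous pools stood at 6.15 and 5.31 CPM and its wild type pools at 0.603 and 0.917 CPM. The log2 fold change was 2.91 (SE 0.46) and the edgeR adjusted p 0.397. DESeq2 called this gene alone at stage 35. It was followed by LOC100492966, at 77.3 and 55.1 CPM against 200 and 128 CPM (log2 fold change -1.31, SE 0.29), and LOC108645628, at 1.5 and 0.402 CPM against 5.43 and 3.28 CPM (log2 fold change -2.17, SE 0.53).

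**Figure D2:**
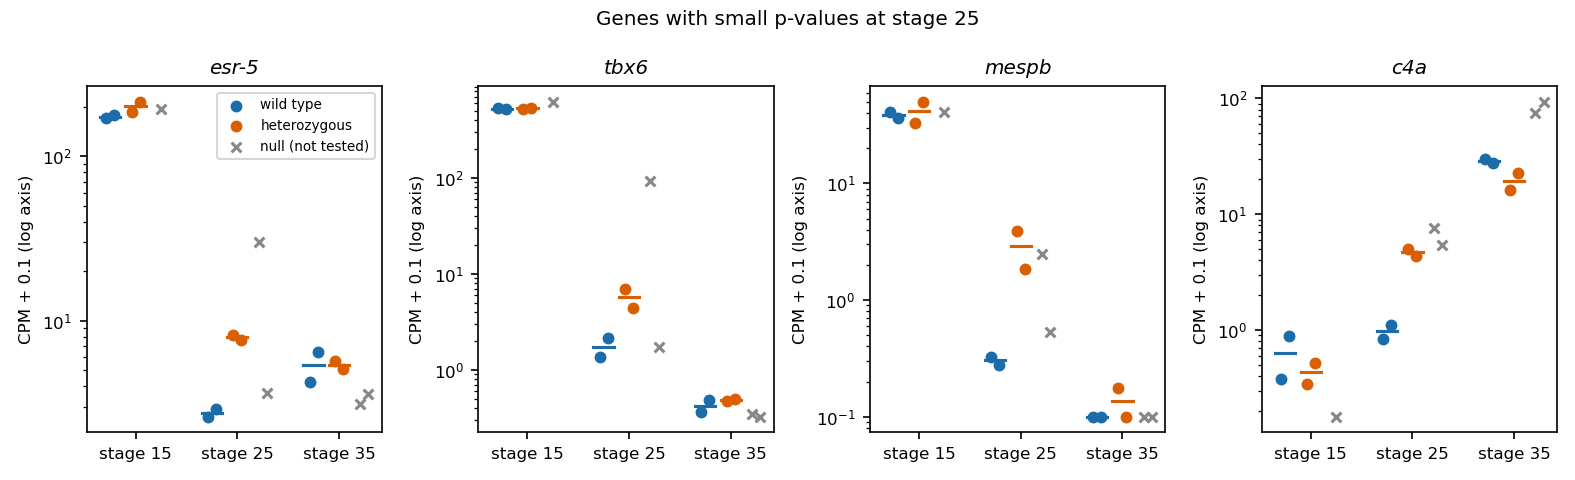
Levels of esr-5, tbx6, mespb and c4a in each pool by stage, in CPM plus 0.1 on a log axis. Points are pools, bars are means of the 2 pools, and grey crosses are the null pools. At stage 25 both heterozygous pools lie above both wild type pools in all 4 genes, which were picked by small p-values. At stage 15 tbx6 stands at 522 to 539 CPM in every heterozygous and wild type pool.

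Whether the effect of the heterozygous genotype differed between stages was tested for every gene, and edgeR called 0 genes in each of the 3 comparisons. Between stages 15 and 25, 565 genes (3.22%) had an unadjusted p under 0.05, and between stages 25 and 35 and stages 15 and 35 the numbers were 244 (1.39%) and 491 (2.8%). The DESeq2 Wald test called mespb and tbx6 between stages 15 and 25, c4a between stages 25 and 35 and no gene between stages 15 and 35. The difference of log2 fold changes from stage 15 to 25 was 1.77 (SE 0.33) for tbx6 and 3.62 (SE 0.66) for mespb, with edgeR adjusted p of 1. Without the first wild type pool of stage 15 these became 0.0439 and 0.0473. From stage 25 to 35 it was -2.96 (SE 0.51, edgeR adjusted p 0.972) for c4a. For esr-5 it was -1.53 (SE 0.31), and for rp1l1, which is near a count of 0 in wild type at stage 25, the unadjusted p was 3.75e-04. Between stages 15 and 35 LOC101730955 (difference 3.62, SE 0.81), vit and nrl had the smallest p-values. The gene vit, of a matrix protein, had 0 and 0 counts in heterozygous pools and 5 and 6 counts in wild type pools at stage 15.

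Splicing genes were described as lists, none of which held a gene called by edgeR over the stages. As edgeR called 1 of 17542 tested genes (0.0057%), this is no result about the lists. Of 10 genes of the SF3 complex, 9 had a log2 fold change above 0 over the stages, with a median of 0.05, beside 8555 of 17542 and a median of 0.00 over all genes tested. The exception was sf3b4, the only member with an unadjusted p under 0.05. Of 44 other spliceosome genes, 36 were above 0, with a median of 0.08. These medians moved with the second wild type pool of stage 15, without which they were 0.00 and 0.03. That pool had the lowest summed levels of stage 15, at 2968 CPM for the SF3 complex against 3435 to 4096 CPM in the others.

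Over all genes tested, 470 of 17542 (2.68%) had an unadjusted p under 0.05 over the stages. In the splicing lists 1 of 10 SF3 complex genes and 1 of 44 other spliceosome genes passed, both lower. In lists of this size such counts, and those below, are no result about the lists. The branch point binding factor gene sf1 stood at 427 and 436 CPM in heterozygous pools against 615 and 480 CPM in wild type pools at stage 25, and its log2 fold change over the stages was -0.24 (SE 0.11). The list of 41 SR and hnRNP regulators had a median of -0.02, with 1 higher and 1 lower member. The lower one, clk1, a kinase of SR proteins, stood at 64.6 and 63.9 CPM against 116 and 77.1 CPM at stage 25 and differed by -0.34 over the stages (SE 0.12). The higher one, srsf10, an SR protein gene, stood at 222 and 197 CPM against 164 and 171 CPM at stage 25 and differed by 0.23 (SE 0.09). Of 16 nonsense-mediated decay genes, upf1 alone had an unadjusted p under 0.05, and the median of the list was 0.01.

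None of 15 neural crest genes and none of 25 pharyngeal arch genes had an unadjusted p under 0.05 over the stages. With 2.68% of all genes tested passing, a count of 0 in lists of this size is near the background. Their median log2 fold changes were 0.01 and 0.06. Of the 15 neural crest genes 10 were above 0, and of the 25 pharyngeal arch genes 16, beside 8555 of all 17542 genes tested. The summed level of the neural crest genes was 3873 and 3723 CPM in heterozygous pools and 4049 and 3330 CPM in wild type pools at stage 15. It was 2504 and 2334 CPM against 2549 and 2319 CPM at stage 25, and 1019 and 1038 CPM against 1036 and 965 CPM at stage 35. The genotypes overlapped at every stage. For single members, the crest factor gene sox10 stood at 40.8 and 26.4 CPM against 29.5 and 61.8 CPM at stage 15, and its stage 25 levels were 52.3 and 43.0 CPM against 71.1 and 39.7 CPM. The gene snai2, of a factor in crest migration, stood at 55.5 and 40.4 CPM against 71.2 and 46.6 CPM at stage 25. Both sox10 and snai2 were chosen after their values were seen, their genotypes overlapped at these stages, and they do not stand for the list. RNA of whole embryos mixes crest cells with all others.

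Of the 21 tested genes of the DNA damage and cell death response, 0 had an unadjusted p under 0.05 over the stages, and the median was -0.01. At stage 15, 5 of the 21 were lower at this p, beside 572 of all 17542 genes (3.26%). The count over all genes rested on the second wild type pool, and the list was not recounted without that pool. Among the 5 was ccng1, a cyclin gene induced by DNA damage, at 12.4 and 22.4 CPM against 25.6 and 47.3 CPM. In ccng1 and in cdkn1a, a cell cycle inhibitor gene at 13.7 and 8.69 CPM against 14.7 and 22.2 CPM, the second wild type pool was the highest of the 4.

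The marker genes actc1 (muscle), elavl3 (neurons), foxj1 (ciliated cells) and ddx25 (germ cells) had counts in all 12 pools. The germ cell marker velo1 was at 0 in the second heterozygous pool of stage 35. In the first heterozygous pool of stage 15, the blood marker hbd and the lens markers cryba1 and crybb1 were at 0. The blood marker hba1 stood at 0.74 CPM in that pool and at 0 in the second heterozygous pool of stage 15. No tissue list held a gene called by edgeR over the stages, which is no result about them, as 1 of 17542 genes (0.0057%) was called. The median log2 fold changes over the stages were -0.06 for skeletal muscle, -0.01 for neurons, -0.04 for ciliated cells, 0.08 for blood, -0.04 for lens and retina, 0.01 for epidermal keratins, -0.01 for oocyte and germ plasm and -0.08 for the notochord. With a single pool left out the blood median ran from -0.22 to 0.28, and the medians of every tissue list but the notochord and the hatching and cement gland genes changed sign. The list of 8 hatching and cement gland genes had a median of -0.07 and 1 member with an unadjusted p under 0.05. This was astl3b.2, of a family of astacin-like proteases whose members may share reads. It stood at 4.66 and 13.3 CPM in heterozygous pools against 21.7 and 29.0 CPM in wild type pools at stage 25, and at 10.6 and 14.9 CPM against 41.4 and 16.1 CPM at stage 35. Its log2 fold change over the stages was -1.33 (SE 0.32, unadjusted p 9.22e-04, edgeR adjusted p 1). At stage 35 the pools of each genotype differed from each other in lens and blood markers. The lens crystallin gene cryba1 stood at 6.45 and 77.5 CPM in heterozygous pools and at 78.0 and 6.49 CPM in wild type pools, so its spread lay within genotypes.

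**Figure D3:**
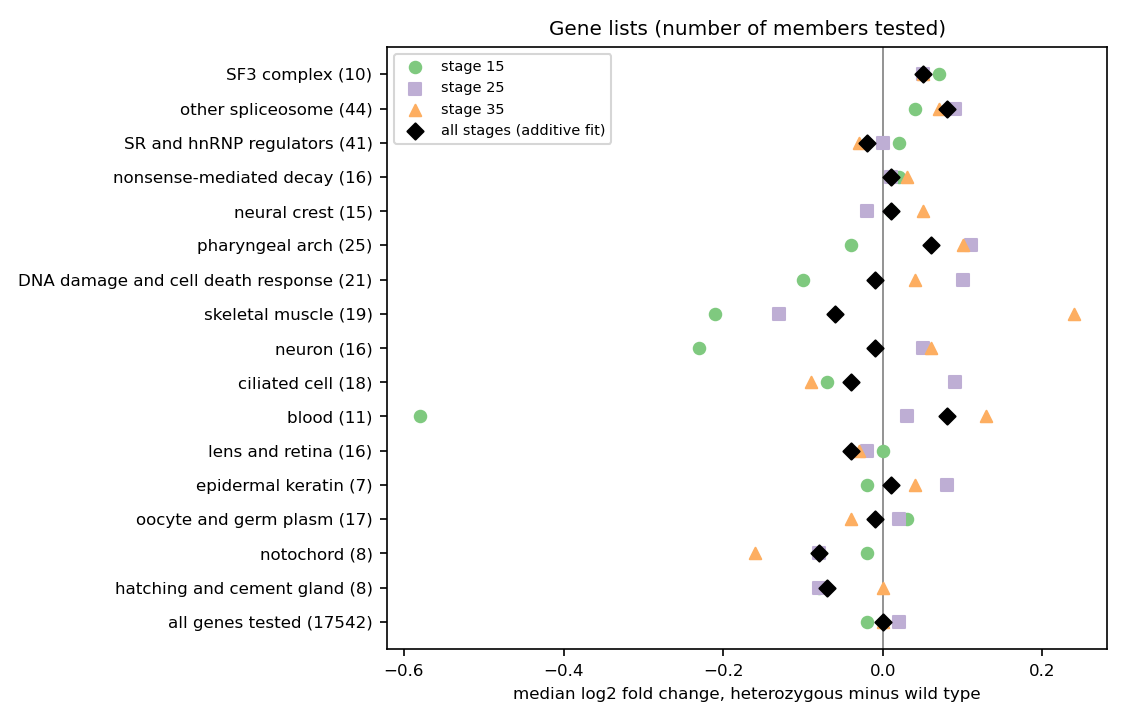
Median log2 fold change of heterozygous against wild type for each gene list, with the number of members tested in brackets. Black diamonds are the fit over all stages, and coloured symbols are the single stages. The medians over all stages lie between -0.08 and 0.08, and the largest shift at a single stage is that of 11 blood genes at stage 15, at -0.58. These genes were low there, with summed levels of 63.6 and 54.2 CPM in heterozygous and 64.4 and 71.5 CPM in wild type pools. The highest was the second wild type pool.

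Genes with small p-values were more frequent on chromosome 8, which carries sf3b4, than on the other chromosomes. Of 2001 tested genes on it, 97 had an unadjusted p under 0.05 over the stages, or 4.85% (95% Clopper-Pearson interval 3.95% to 5.88%, for counting error only). They were 45 higher and 52 lower. On all other chromosomes 371 of 15511 genes passed, or 2.39%, and no single chromosome exceeded 2.77%. Over all genes tested 470 passed, where 877 would with no effect. At this threshold neither share exceeded the one that no effect would give. Neighbouring genes are not independent, so the difference is given without a test. At an unadjusted p under 0.01 the shares were 1.20% and 0.38%. By stage the shares on chromosome 8 and elsewhere were 4.55% and 3.91% at stage 15, 4.05% and 2.28% at stage 25 and 1.70% and 1.15% at stage 35. Chromosome 8 was not the highest at every stage. Chromosome 2 stood above it at stage 15 (4.91%) and chromosome 6 at stage 35 (1.87%). At stage 25 the highest other share was that of chromosome 4 (3.19%).

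Of the 201 tested genes within 100 genes of sf3b4, itself included, 18 had an unadjusted p under 0.05, or 8.96%. The Clopper-Pearson interval of this share was 5.39% to 13.8%. These genes had lower levels than most, and 40.8% had only a provisional name. The share among the 1500 genes of the chromosome more than 250 genes away was 4.60%. The 5 nearest tested genes on each side had log2 fold changes between -0.14 and 0.11 and unadjusted p between 0.265 and 0.797. They were polr3gl, txnip, hjv, nr2f5 and bola1 on the side of xmc and mtmr11, otud7b, vps45, plekho1 and anp32e on the other. Several genes described above lie on chromosome 8, which carried 11.4% of all tested genes. They are xmc, 1069 tested genes from sf3b4, its overlapping neighbour LOC105946046, exo1, c4a, asb12.2, rrnad1, astl3b.2 and LOC101730955. Reads of xmc and LOC105946046 may be shared, so they may not be separate cases. Only exo1 and asb12.2 came from the 12 named as higher at all stages, and only rrnad1 from the 12 named as lower.

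The signs of these differences were also set side by side between stages, which share no pools. The shares are given without a test. Of 91 genes of chromosome 8 with an unadjusted p under 0.05 at stage 15, 63 had the same sign at stage 25 (69.2%), beside 305 of 607 on the other chromosomes (50.2%). Of 81 chosen at stage 25, 61 had the same sign at stage 15 (75.3%), beside 188 of 353 elsewhere (53.3%). For genes chosen at stage 25 and read at stage 35 the shares were 58.0% and 57.2%, and for the reverse choice they were 58.8% and 57.5%. For genes chosen at stage 15 and read at stage 35 they were 53.8% and 55.7%. The reverse choice gave 24 of 34 genes (70.6%) on chromosome 8 and 54.7% elsewhere. The share on chromosome 8 was thus below that elsewhere in 1 of the 6 readings, from stage 15 to 35.

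**Figure D4:**
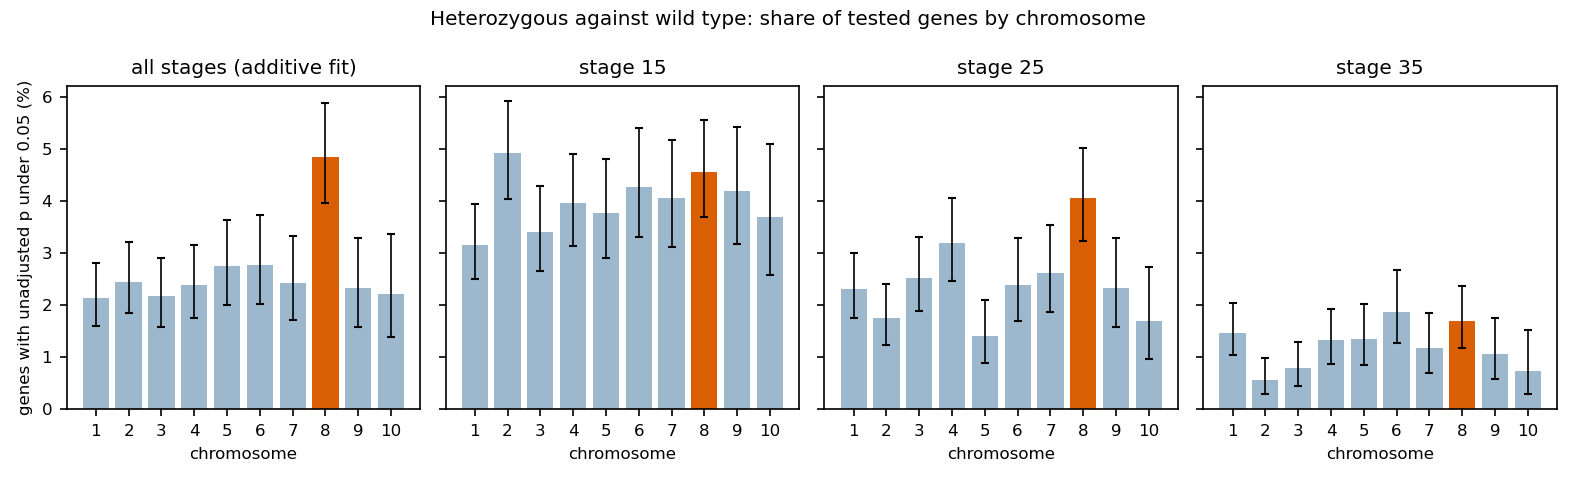
Share of tested genes with an unadjusted p under 0.05 by chromosome, in percent, over all stages and at each stage, with chromosome 8 in orange. Error bars are 95% Clopper-Pearson intervals. Over all stages chromosome 8 stands at 4.85% and the others between 2.14% and 2.77%.

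**Figure D5:**
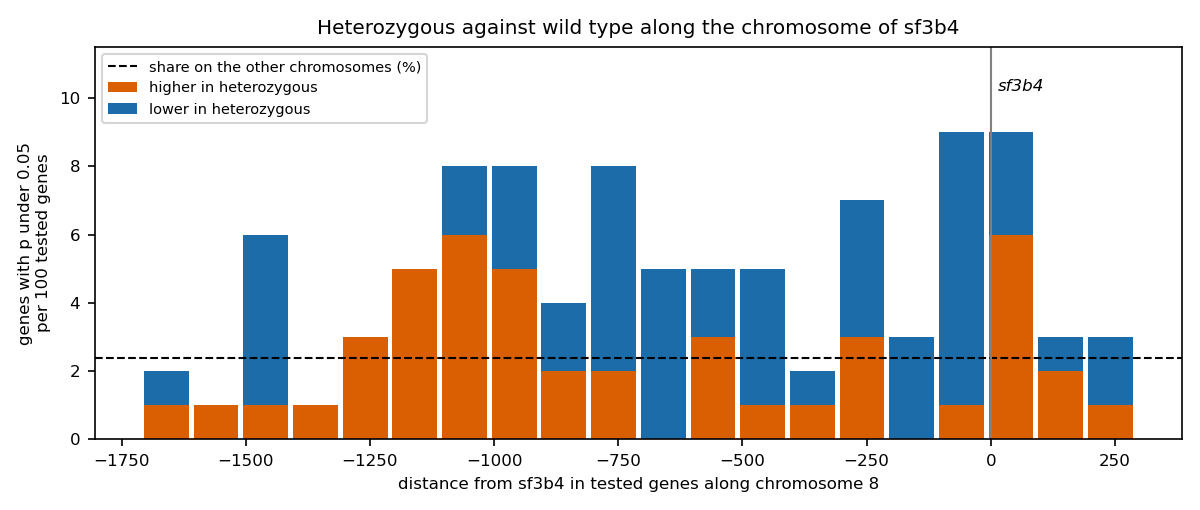
Genes of chromosome 8 with an unadjusted p under 0.05 over the stages per 100 tested genes, in order along the chromosome, with 0 at sf3b4. Orange counts genes higher and blue genes lower in heterozygous pools, and the dashed line is the 2.39% of the other chromosomes. Both colours occur along most of the chromosome.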

How the data were processed

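The authors deposited raw read counts per gene for each library, with the same 26531 genes in every file, per the file headers. Library sums differed, so no scaling had been applied. Demultiplexing with bcl2fastq 2.20 and alignment with STAR are named in the submitters' processing notes. The counting program, genome build, annotation and strand setting are not given in the sources used here, so reads of overlapping, antisense or near-identical genes may be shared. Stranded libraries were prepared, per the labels. Sequences and splicing were not analysed here.

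The 12 heterozygous and wild type libraries (11714437 to 21639041 counts) were fitted with edgeR 4.0.16 in R 4.3.3, using TMM scaling, filterByExpr (minimum count 10, minimum total 15) and the two-sided quasi-likelihood test. The fit over the stages had stage and genotype as terms, with 8 residual degrees of freedom, and single stages and their differences came from a fit with a coefficient per stage and genotype, with 6. The common dispersion was 0.0399. P-values were adjusted by Benjamini-Hochberg over 17542 genes, and calls required an adjusted p below 0.05. Standard errors follow from the test statistics. CPM used TMM-scaled library sizes, and log2 CPM a prior count of 2. A group with at most 3 counts in every library was at the floor. Reads carry no molecular identifiers, so floors and intervals cover counting error only. A RefSeq table (UCB_Xtro_10.0) gave names, chromosomes and gene order, with 17541 of the tested genes matched. The scripts were tested on simulated counts.

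Named genes were sf3b4, called genes, the 12 with the smallest p in each direction among symbols of at least 1 CPM with non-overlapping pools at all stages, the 3 with the smallest p at each stage and in each difference, up to 4 list members with an unadjusted p under 0.05, and the 5 tested genes nearest to sf3b4 on each side. Marker genes shown by level only (sox10, snai2, ccng1, cdkn1a, cryba1) were chosen after their values were seen. The comparison, lists and rules were chosen with earlier results of these data known. Alternatives were DESeq2 1.42.0 (size factors and Wald test), no filter, a stricter filter and a replicate block, also with crossed numbers. Others were leaving out each pool or stage, each stage fitted alone, and a fit of all 17 pools, null pools included.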

Additional observations from a re-analysis of the deposited data

Results flagged for a closer look

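The null pools were used in no comparison, but they also carried xmc, the single gene called in heterozygous embryos. In the null pool of stage 15, xmc stood at 18.9 CPM, above the highest wild type pool of that stage at 2.30 CPM. At stage 25 the null pools stood at 2.84 and 0.794 CPM, above the highest wild type pool at 0.299 CPM. These values caught attention because they come from libraries outside the comparison and exceed every wild type pool of their stage. The null and heterozygous pools are set beside the same wild type pools, so the values are no independent check.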

How the results depend on the processing

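The directions of the 30 genes named over the stages held in all 630 combinations of gene and setting, while the counts of called genes moved. Apart from sf3b4, these genes were picked by small p-values, most of them also by non-overlapping pools. Their held directions were thus largely fixed by the choice. Without the filter on low counts edgeR called 5 genes over the stages, 35, 16 and 2 at stages 15, 25 and 35, and 7, 2 and 10 in the differences between stages 15 and 25, 25 and 35, and 15 and 35. The DESeq2 Wald test called 5 genes over the stages, 4, 9 and 1 at the 3 stages, and 2 and 1 in the differences between stages 15 and 25 and between stages 25 and 35. Over the stages edgeR called 0 genes without the stage 15 pools, 0 without the stage 25 pools and 2 without the stage 35 pools, and it called 2 at stage 15 with those pools fitted alone. With a single pool left out, the number called ran from 0 to 2 over the stages, from 0 to 371 at stage 15, from 0 to 5 at stage 25, from 0 to 89 between stages 15 and 25 and from 0 to 83 between stages 15 and 35. The highest counts of stage 15 and of its differences came without the first wild type pool of that stage, where the second is assumed to vary like the other groups. The cause of these shifts was not tested.

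A replicate block on the numbers in the titles left 0 genes called over the stages, with an edgeR adjusted p of 0.116 for xmc. Deviations of same-numbered pools from their group means correlated at -0.23, -0.03 and -0.38 at stages 15, 25 and 35. The labels do not say whether the numbers pair the pools, and a single pair of pools per genotype and stage cannot settle it. A block with the numbers crossed at stages 15 and 35, chosen after seeing the data, gave 3 called genes over the stages, 3, 4 and 0 at stages 15, 25 and 35 and 0 in each difference between stages. The share of genes with small p on chromosome 8 was 2.03 times that elsewhere. The ratio was 3.15 at p under 0.01, 1.48, 1.56 and 2.60 without the pools of stages 15, 25 and 35, and 1.36 to 2.17 with a pool left out. With 2 pools per genotype and stage, even large differences at a single stage could go uncalled. In the main fit these included xmc at stage 15 (log2 fold change 3.16, edgeR adjusted p 0.0743) and mespb at stage 25 (3.73, edgeR adjusted p 0.0798). A count of 0 called genes therefore does not show that there was no effect.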

Other observations

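A list of presomitic mesoderm and tailbud genes was drawn up after the stage 25 values of tbx6, esr-5 and mespb had been seen, and it is given as a description. Of 29 tested members, 5 were higher in heterozygous pools at stage 25 with an unadjusted p under 0.05 and 0 were lower, beside 233 higher and 201 lower of all 17542 genes. Of the 5, 3 had prompted the list, and the median of the list at that stage was 0.03. The others were mespa and hes7.2, both of bHLH factors in somite formation. At stage 25, mespa stood at 6.33 and 2.30 CPM in heterozygous pools and at 1.20 and 2.33 CPM in wild type pools, so its pools overlapped. The levels of hes7.2 were 10.9 and 14.2 CPM in heterozygous pools and 5.7 and 5.45 CPM in wild type pools. At stage 15 hes7.2 stood at 105 and 118 CPM against 99.6 and 107 CPM.

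Blood genes at stage 35 differed mainly between pools of one genotype. The summed level of 11 blood genes was 2565 and 6802 CPM in heterozygous pools and 3750 and 2310 CPM in wild type pools. The globin gene hbd stood at 601 and 1472 CPM in heterozygous pools and at 830 and 454 CPM in wild type pools. In the same pools the crystallin gene crybb1 stood at 3.83 and 49.5 CPM and at 67.6 and 3.21 CPM, so the heterozygous and wild type pools with high crystallin levels were those with high blood levels.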
